A study of Mus musculus with 8 samples.

Results

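Interferon-stimulated genes, the genes that cells switch on when they sense interferon or viral nucleic acid, were followed in fibroblasts from mouse embryos that had been reprogrammed towards pluripotency for 8 days with OKSM, the factors Pou5f1, Klf4, Sox2 and Myc. The members were 48 genes chosen by symbol, of which 47 had an entry among the 26930 genes of the count table and 45 of the 15789 genes tested. Ifi27 had no entry under that symbol, and Slfn2 and Epsti1 were counted too rarely to be tested. RNA was sequenced after depletion of ribosomal RNA in 8 libraries, in 4 groups of 2. The cells were WT, which the labels also describe as H3, or K36M, which names a form of histone H3 with methionine in place of a lysine that can be methylated. Their AGi medium held either Repsox at 250 nM, which blocks the kinase of a TGF-beta receptor, or TGF-beta1 at 2.5 ng/ml. All 4 groups thus shared the fibroblast origin, the OKSM factors, the medium and the day. The groups are called WT Repsox, WT TGF-beta, K36M Repsox and K36M TGF-beta below, and no untreated cells were analysed here. How the mutant histone was expressed, the mouse strain, and whether replicate libraries stem from different cultures are not given in the sources used here. The p-values therefore measure the spread between libraries, which may be technical.

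Type I interferons bind the receptor made of Ifnar1 and Ifnar2, whose kinases Jak1 and Tyk2 phosphorylate Stat2 among other proteins. Stat2 and Irf9 are subunits of ISGF3, a transcription factor that binds an interferon-stimulated response element in the promoters of genes that degrade viral RNA, block viral entry and budding, or tag proteins with Isg15. Several of the products, among them Stat2, Irf9 and the sensors of foreign RNA, are themselves parts of the pathway. Pluripotent cells are known to answer interferon weakly compared with fibroblasts.

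The promoters of the members were searched on both strands for GAAA, any 2 bases and GAAA again, the core of the interferon-stimulated response element. Of the 47 members, 38 were in the RefSeq promoter table (GRCm38.p6), which gives 250 bases before and 50 after each start. The motif was present in 18 of these 38 (47.4%, exact 95% interval 31.0 to 64.2%) and in 1079 of all 27025 genes in the promoter table (3.99%). The interval treats genes as independent draws. The members were chosen by symbol, and some, such as Oas1a and Oas1g, have near-identical promoters. Within the 250 bases before the start it was present in 16 of 38 members (42.1%) and in 3.46% of all genes. A match to these letters is a description and not a bound site. The lines below show 8 members that are described in detail here, so that the position and the repeats of the motif can be compared. Capitals mark the motif, which overlaps a second copy where more than 10 letters are in capitals, and each window was placed on mm9 by its single exact match.
Rsad2: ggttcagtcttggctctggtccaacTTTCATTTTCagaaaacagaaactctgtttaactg
Oas3: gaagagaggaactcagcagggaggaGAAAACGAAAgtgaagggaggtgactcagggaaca
Isg15: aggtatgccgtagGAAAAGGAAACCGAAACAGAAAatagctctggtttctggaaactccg
Bst2: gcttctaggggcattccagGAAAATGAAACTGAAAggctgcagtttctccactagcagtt
Ifit1: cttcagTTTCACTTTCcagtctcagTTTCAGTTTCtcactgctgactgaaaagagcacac
Gbp3: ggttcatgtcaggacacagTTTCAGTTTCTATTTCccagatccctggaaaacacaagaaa
Slfn9: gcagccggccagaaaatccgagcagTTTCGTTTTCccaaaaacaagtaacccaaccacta
Stat2: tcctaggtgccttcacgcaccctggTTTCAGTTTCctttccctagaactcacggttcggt
The windows lay at chr12:27141403-27141462 on the minus strand for Rsad2, chr5:121227709-121227768 minus for Oas3, chr4:155574959-155575018 minus for Isg15 and chr8:74061461-74061520 minus for Bst2. Those of Ifit1 (chr19:34715269-34715328, plus), Gbp3 (chr3:142222944-142223003, plus), Slfn9 (chr11:82805343-82805402, minus) and Stat2 (chr10:127707307-127707366, plus) followed the same build. Isg15 carried 3 overlapping copies in an unbroken run, Ifit1 carried 2 separate copies, and Oas3, Rsad2, Slfn9 and Stat2 carried 1 each.

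Totals ran from 10928302 to 15594217 counts per library, and levels are given as CPM, counts brought to a common library size scaled by TMM. Fibroblast markers summed to 217.4 ± 23.0 CPM in K36M Repsox, 916.7 ± 9.12 in K36M TGF-beta, 3380 ± 231 in WT Repsox and 11420 ± 898 in WT TGF-beta (mean ± SD, n = 2). Markers of pluripotent cells summed to 1726 ± 4.95, 825.0 ± 3.82, 1307 ± 141 and 30.09 ± 2.13 CPM in the same order, and epithelial markers to 4976 ± 161, 3514 ± 110, 2071 ± 97.6 and 119.2 ± 18.2 CPM. The fibroblast markers did not all follow their sum: between media in WT, 6 of 9 rose under TGF-beta, collagens and Vim among them, while Thy1 fell 19.3-fold, Pdgfra 16.9-fold and Pdgfrb 1.86-fold. In bulk RNA fewer cells of a type and less RNA per cell cannot be told apart. Blood and macrophage markers, whose cells express many of the members strongly, summed to 79.65 ± 1.51 CPM in K36M Repsox and 29.81 ± 0.0707 in WT Repsox, of which Csf1r made up 47.5 and Cd68 29.9 CPM in K36M Repsox. Of the 10 markers 5 were tested, and between these groups Csf1r and Cd68 were called higher and Lyz2 was called 12.4-fold lower in K36M (edgeR adjusted p = 4.92e-05). The leukocyte marker Ptprc had 0 to 3 counts in each of the 8 libraries, and Cd3e had 6 and 17 counts in K36M Repsox. Emr1 had 14 and 9 counts in WT Repsox, and Emr1, Fcgr1 and Siglech had 0 in the 4 K36M libraries. The part of these markers' cell types in the differences below was not tested.

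The members were highest in K36M Repsox and lowest in WT TGF-beta. Together they took 0.1826 and 0.1824% of all counts in the K36M Repsox libraries, 0.0847 and 0.08699% in WT Repsox, 0.06118 and 0.06391% in K36M TGF-beta, and 0.03088 and 0.0324% in WT TGF-beta. Their summed level was 1780 ± 21.9 CPM in K36M Repsox, 824.2 ± 0.919 in WT Repsox, 604.2 ± 8.56 in K36M TGF-beta and 350.9 ± 16.6 in WT TGF-beta. Neighbours in this order did not overlap between libraries. The sum was dominated by a few genes, since Ifitm3, Trim25 and Bst2 made up 64.9 and 63.2% of it in WT Repsox, and Trim25, Bst2 and Rsad2 made up 37.1 and 36.9% in K36M Repsox. Of the 47 members counted, 41 had their highest mean in K36M Repsox, 4 in K36M TGF-beta (Oas3, Gbp2, Herc6 and Slfn4) and 2 in WT Repsox (Ifitm1 and Ifitm3). Among the 45 tested, 37 had both K36M Repsox libraries above the other 6, which held for 19.2% of all tested genes. The lowest mean was in WT TGF-beta for 33 members, in K36M TGF-beta for 7 (Eif2ak2, Ifit2, Ifit3, Ifitm3, Trim25, Ifi35 and Samd9l), in WT Repsox for 4 (Oas3, Gbp2, Gbp3 and Herc6), and was shared by several groups at 0 for Slfn4, Ifi27l2a and Epsti1.

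**Figure D1:**
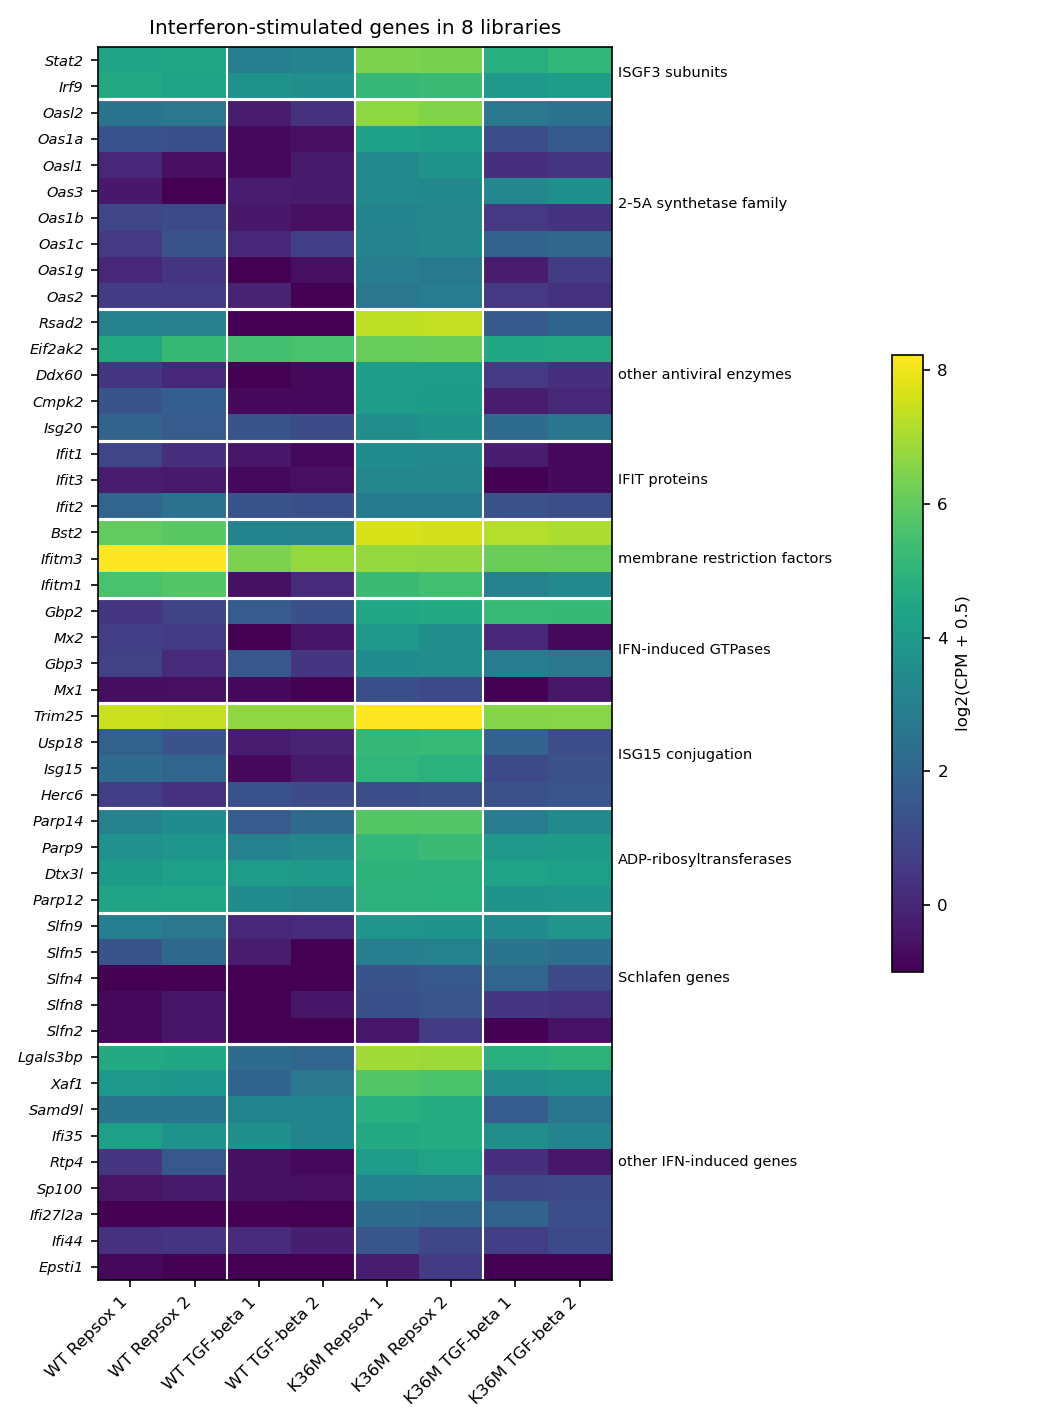
Level of the 47 members (rows, grouped by role) in the 8 libraries (columns), as log2(CPM + 0.5). The K36M Repsox columns are the brightest in most rows, with Ifitm1, Ifitm3, Oas3, Gbp2, Herc6 and Slfn4 as the rows that peak elsewhere.

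Between genotypes under Repsox, K36M was called higher than WT for 41 of the 45 tested members and lower for 2, at an edgeR adjusted p below 0.05. Of all 15789 genes, 28.8% were called higher and 26.9% lower in that comparison. The median log2 fold change was 2.55 over the members and 0.035 over all genes. Under TGF-beta, 32 members were called higher and 3 lower in K36M, against 36.4% and 33.9% of all genes, with a median of 1.99 over the members and 0.051 over all genes. Between media, 28 members were called lower and 3 higher under TGF-beta in WT, against 33.4% and 29% of all genes, with medians of -1.41 and -0.068. In K36M, 36 members were called lower and 1 higher under TGF-beta, against 23.6% and 24.7% of all genes, with medians of -1.79 and 0.009. Asking for at least a 2-fold change as well left K36M higher for 36 and lower for 1 under Repsox (12% and 12.4% of all genes), and for 29 and 1 under TGF-beta (22.4% and 16.8%). Between media it left 1 higher and 24 lower under TGF-beta in WT (12.3% and 18.3%) and 32 lower in K36M (8.25%), while Gbp2, the member higher there (10.7% of all genes), rose 1.55-fold. A gene counted only where it is high passes the filter on low counts through that group, so these counts describe the tested members and not the whole list. Ifit1, Ifit3, Mx1 and Oasl1 passed only through K36M Repsox, and their calls are among the 41 higher under Repsox. Their lower calls are also among the 36 under TGF-beta in K36M. Oas3, Slfn4, Slfn8, Sp100 and Ifi27l2a had at most 4 counts in any WT library and passed only through the K36M groups. The calls of these genes are among the 41 higher under Repsox and the 32 higher under TGF-beta.

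Stat2 and Irf9, subunits of ISGF3, were both highest in K36M Repsox and lowest in WT TGF-beta. Stat2 stood at 20.4 and 21.1 CPM in WT Repsox, 7.4 and 8.19 in WT TGF-beta, 85.9 and 82.4 in K36M Repsox, and 27.6 and 33.7 in K36M TGF-beta. Its libraries did not overlap between any 2 groups, and K36M exceeded WT by log2 2.02 ± 0.11 under Repsox and 1.97 ± 0.14 under TGF-beta (SE, edgeR adjusted p = 9.63e-13 and 2.05e-11). Irf9 stood at 23.5 and 19.3 CPM in WT Repsox, 12.6 and 11.3 in WT TGF-beta, 35 and 38.9 in K36M Repsox, and 15 and 17 in K36M TGF-beta. K36M Repsox was above the other groups for Irf9 as well, by 1.72-fold over WT Repsox (edgeR adjusted p = 2.56e-05). The difference under TGF-beta was 1.34-fold (adjusted p = 0.0187), and it was no longer called without WT TGF-beta replicate 2 (adjusted p = 0.13), without K36M TGF-beta replicate 2 (0.124) or in DESeq2 (0.0824). Part of the Irf9 exons overlaps Rnf31 on the same strand, so that some reads cannot be assigned to either gene with certainty.

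The 2-5A synthetases make oligoadenylates when they bind double-stranded RNA, and all 8 members of this family were called higher in K36M than in WT in both media. Of all tested genes, 28.8% were called higher under Repsox, 36.4% under TGF-beta and 18.7% in both. Oasl1 passed the filter on low counts only through K36M Repsox, and Oas3 only through the K36M groups. The calls of both under Repsox, and that of Oas3 under TGF-beta, are therefore not read as results. Under TGF-beta, the calls of Oas1b, Oas1g, Oas2 and Oasl1 were lost under at least 1 alternative. The log2 fold changes of all 8 ran from 2.52 to 6.01 under Repsox and from 1.96 to 5.02 under TGF-beta. Oasl2, a relative of the synthetases, stood at 5.39 and 5.74 CPM in WT Repsox, 0.344 and 0.79 in WT TGF-beta, 101 and 89.1 in K36M Repsox, and 5.78 and 4.98 in K36M TGF-beta. K36M Repsox was far above the rest, WT TGF-beta was below it, and K36M TGF-beta overlapped WT Repsox. K36M exceeded WT 17.1-fold under Repsox and 9.08-fold under TGF-beta, and it was 9.35-fold lower under TGF-beta in WT and 17.6-fold lower in K36M (edgeR adjusted p from 1.08e-15 to 7.04e-09). Oas1a stood at 2.02 and 1.89 CPM in WT Repsox, 0.0861 and 0.144 in WT TGF-beta, 18.9 and 17.5 in K36M Repsox, and 1.8 and 2.45 in K36M TGF-beta. Oas1c stood at 0.944 and 2.04 CPM in WT Repsox, 0.517 and 1.15 in WT TGF-beta, 8.16 and 9.17 in K36M Repsox, and 3.28 and 3.58 in K36M TGF-beta. For Oas1a the WT TGF-beta group held 3 counts, and K36M TGF-beta exceeded it 17.9-fold (exact interval 5.79 to 89.7, counting error only). The genes Oas1a and Oas1g share near-identical sequence, so their reads may have been split between them.

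Oas3, a large 2-5A synthetase, was called between genotypes in both media and between media in neither genotype. It stood at 0.27 and 0 CPM in WT Repsox, 0.344 and 0.287 in WT TGF-beta, 10.1 and 9.49 in K36M Repsox, and 9.22 and 11.8 in K36M TGF-beta. The 4 K36M libraries were all above the 4 WT libraries, and the media overlapped within K36M. K36M exceeded WT by log2 6.01 ± 0.46 under Repsox and 5.02 ± 0.41 under TGF-beta (SE). Oas3 passed the filter on low counts only through the K36M groups, so no p-value is given for these genotype differences and their calls are not read as results. TGF-beta and Repsox differed by 1.09 ± 0.91 in WT and 0.10 ± 0.24 in K36M (edgeR adjusted p = 0.307 and 0.765). WT Repsox held 4 counts in replicate 1 and 0 in replicate 2, and the value under Repsox was 9.99 without replicate 1. Of the other 7 family members, 5 were called lower under TGF-beta in WT and all 7 in K36M, against 33.4% and 23.6% of all tested genes. Oasl1, called lower in K36M only, passed the filter on low counts only through K36M Repsox.

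Rsad2, viperin, an enzyme that makes a chain-terminating nucleotide for viral polymerases, ran from no counts at all to 165 CPM. It stood at 7.89 and 7.63 CPM in WT Repsox, 0 and 0 in WT TGF-beta, 163 and 165 in K36M Repsox, and 2.58 and 3.41 in K36M TGF-beta. The 4 groups did not overlap, and WT TGF-beta had no count in either library. K36M exceeded WT by log2 4.40 ± 0.12 under Repsox, and it was 55-fold lower under TGF-beta in K36M (edgeR adjusted p = 1.32e-17 and 6.81e-18). Against the floor of 3 counts over the group, K36M TGF-beta was at least 25.3-fold higher than WT TGF-beta, and WT Repsox at least 66.1-fold higher than WT TGF-beta. Cmpk2, a nucleotide kinase gene beside Rsad2 on chromosome 12, had the same order of groups, with log2 2.70 ± 0.25 between genotypes under Repsox.

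Among the other antiviral enzymes, Isg20, an RNA exonuclease, stood at 3.37 and 2.64 CPM in WT Repsox, 2.15 and 1.72 in WT TGF-beta, 11.3 and 13.3 in K36M Repsox, and 4.14 and 5.59 in K36M TGF-beta. It was higher in K36M by 4.04-fold under Repsox and 2.51-fold under TGF-beta, and its fall under TGF-beta was called in K36M (2.52-fold, edgeR adjusted p = 6.09e-05). In WT it was 1.57-fold lower without passing the test (adjusted p = 0.077). Ddx60, a helicase-like protein, was 23.5-fold higher in K36M under Repsox. Eif2ak2, the kinase PKR that halts translation when it binds double-stranded RNA, behaved differently. It stood at 24.1 and 36 CPM in WT Repsox, 43.4 and 47 in WT TGF-beta, 67.2 and 70.3 in K36M Repsox, and 22.7 and 23.1 in K36M TGF-beta. K36M Repsox was the highest group and K36M TGF-beta the lowest, while in WT the TGF-beta libraries were above the Repsox libraries. K36M was 2.3-fold higher than WT under Repsox and 1.98-fold lower under TGF-beta (edgeR adjusted p = 5.48e-08 and 1.48e-06). It was higher under TGF-beta by log2 0.60 ± 0.13 in WT, and the WT Repsox libraries set the size of this value, which was 0.91 without replicate 2 and 0.32 without replicate 1. An exon of Eif2ak2 overlaps a gene on the other strand, and the strand setting of the counting is not given in the sources used here.

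The IFIT proteins, which bind viral RNA lacking the host's cap, were near their lowest levels in both TGF-beta groups. Ifit1 stood at 1.42 and 0.68 CPM in WT Repsox, 0.258 and 0.0718 in WT TGF-beta, 10.6 and 10.1 in K36M Repsox, and 0.313 and 0.0874 in K36M TGF-beta. Ifit3 stood at 0.337 and 0.302 CPM in WT Repsox, 0.0861 and 0.144 in WT TGF-beta, 9.09 and 9.09 in K36M Repsox, and 0 and 0.0874 in K36M TGF-beta. For both, the K36M Repsox libraries were far above the other 6, which held little signal. K36M exceeded WT under Repsox by log2 3.27 ± 0.36 for Ifit1 and 4.79 ± 0.42 for Ifit3. Both genes passed the filter on low counts only through K36M Repsox, so no p-value is given for these differences. Under TGF-beta, Ifit1 differed by 0.37 ± 1.02 between genotypes (edgeR adjusted p = 0.759), and Ifit3 held 3 counts in WT and 1 in K36M, which gives no fold. In K36M, Repsox over TGF-beta was 220-fold for Ifit3 (exact interval 39.2 to 8740, counting error only). Ifit2 stood at 3.51 and 4.91 CPM in WT Repsox, 2.07 and 1.87 in WT TGF-beta, 6.32 and 6.6 in K36M Repsox, and 1.95 and 1.75 in K36M TGF-beta. Its genotype difference under Repsox was 1.54-fold (adjusted p = 0.0504), just outside the threshold, and it was lower under TGF-beta in WT (2.13-fold) and K36M (3.47-fold). The fall in WT was not called without WT Repsox replicate 2 (adjusted p = 0.0552).

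The membrane restriction factors gave 3 separate patterns. Bst2, tetherin, which holds budding virus on the cell surface, stood at 63.4 and 57.6 CPM in WT Repsox, 8.44 and 8.33 in WT TGF-beta, 205 and 193 in K36M Repsox, and 145 and 137 in K36M TGF-beta. The K36M libraries were all above the WT libraries, and WT TGF-beta was far below the rest. K36M exceeded WT 3.29-fold under Repsox and 16.8-fold under TGF-beta, and it was 7.22-fold lower under TGF-beta in WT and 1.41-fold lower in K36M (edgeR adjusted p from 1.03e-18 to 2.55e-05). Ifitm3, which blocks fusion of viruses with endosomes and is also known as a germ cell marker, stood at 293 and 295 CPM in WT Repsox, 84.1 and 108 in WT TGF-beta, 108 and 104 in K36M Repsox, and 70.3 and 67.5 in K36M TGF-beta. WT Repsox was above all other libraries, and the WT TGF-beta libraries met those of K36M Repsox. Ifitm3 was the one member called lower in K36M in both media, by log2 -1.47 ± 0.09 under Repsox and -0.48 ± 0.10 under TGF-beta (edgeR adjusted p = 7.78e-12 and 0.000143), and the second value was -0.29 without WT TGF-beta replicate 2.

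Ifitm1, the neighbour of Ifitm3 on chromosome 7 and likewise known from germ cells, stood at 47.5 and 53 CPM in WT Repsox, 0.172 and 0.574 in WT TGF-beta, 38.7 and 43.3 in K36M Repsox, and 7.74 and 9.61 in K36M TGF-beta. Both Repsox groups were high, K36M TGF-beta was intermediate and WT TGF-beta near 0. Ifitm1 was 126-fold lower under TGF-beta in WT and 4.73-fold lower in K36M (edgeR adjusted p = 1.79e-16 and 3.68e-11). Between genotypes it was 21.6-fold higher in K36M under TGF-beta and 1.23-fold lower under Repsox (adjusted p = 5.1e-11 and 0.0485). The second of these calls was lost in DESeq2 (adjusted p = 0.164), with RLE or upper-quartile factors (0.051 and 0.0569), and without WT Repsox replicate 2 (0.203), K36M Repsox replicate 1 (0.305), K36M Repsox replicate 2 (0.0655) or K36M TGF-beta replicate 2 (0.0507).

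The interferon-induced GTPases, which coat pathogens or viral capsids, were all 4 called higher in K36M under Repsox, against 28.8% of all tested genes. The log2 fold changes of the 4 in that comparison ran from 3.5 to 4.38. Mx1 passed the filter on low counts only through K36M Repsox, so its call is not read as a result. Gbp2 stood at 0.876 and 1.36 CPM in WT Repsox, 2.67 and 1.87 in WT TGF-beta, 21.9 and 24.5 in K36M Repsox, and 36.3 and 35.6 in K36M TGF-beta. It was the one member with both K36M TGF-beta libraries above the other 6, against 14.6% of all tested genes. K36M exceeded WT 20.8-fold under Repsox and 16-fold under TGF-beta, and it was higher under TGF-beta in K36M by log2 0.64 ± 0.14 (edgeR adjusted p = 0.000776). The rise in WT was 1.01 ± 0.33 (adjusted p = 0.0105), and it was not called without WT Repsox replicate 1 (0.71, adjusted p = 0.124), without WT TGF-beta replicate 1 (0.76, adjusted p = 0.112) or with the 4 WT libraries alone (1.02, adjusted p = 0.0538). Gbp3, beside it on chromosome 3, stood at 1.28 and 0.604 CPM in WT Repsox, 2.32 and 0.862 in WT TGF-beta, 10.7 and 11.2 in K36M Repsox, and 6.96 and 5.85 in K36M TGF-beta. K36M was above WT in both media, whereas the media overlapped within WT. Its fall under TGF-beta in K36M was 1.7-fold (adjusted p = 0.023), which was lost in DESeq2 (0.132) and without any 1 of the 4 K36M libraries (0.0531 to 0.142). Mx2 stood at 1.08 and 0.982 CPM in WT Repsox, 0 and 0.215 in WT TGF-beta, 15.1 and 11.2 in K36M Repsox, and 0.547 and 0.0874 in K36M TGF-beta. K36M Repsox was well above the rest, by 12.7-fold over WT Repsox (adjusted p = 1.14e-08), while the TGF-beta groups overlapped.

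Genes of the Isg15 system attach the ubiquitin-like Isg15 to other proteins or remove it. Isg15 itself stood at 4.18 and 3.55 CPM in WT Repsox, 0.0861 and 0.287 in WT TGF-beta, 33.5 and 28.9 in K36M Repsox, and 1.56 and 1.92 in K36M TGF-beta. All 4 groups were separate. K36M exceeded WT by log2 3.01 ± 0.20 under Repsox and 3.09 ± 0.54 under TGF-beta (edgeR adjusted p = 1.6e-11 and 2.52e-05). Their difference, the interaction, was 0.08 (edgeR adjusted p = 0.897), and it is known no more precisely than the value under TGF-beta. Usp18, the protease that removes Isg15 and restrains the receptor, stood at 3.1 and 2.04 CPM in WT Repsox, 0.344 and 0.431 in WT TGF-beta, 34.5 and 37.6 in K36M Repsox, and 3.2 and 1.75 in K36M TGF-beta. K36M Repsox was highest, WT TGF-beta lowest, and K36M TGF-beta overlapped WT Repsox. Usp18 was 13.8-fold higher in K36M under Repsox and 6.28-fold under TGF-beta. Trim25, a ubiquitin ligase for the RNA sensor Ddx58, stood at 179 and 168 CPM in WT Repsox, 102 and 102 in WT TGF-beta, 299 and 293 in K36M Repsox, and 93 and 94.8 in K36M TGF-beta. K36M Repsox was the highest group and both TGF-beta groups were the lowest. Its genotype difference was 1.71-fold under Repsox (adjusted p = 7.22e-09) and -0.12 ± 0.08 on the log2 scale under TGF-beta (adjusted p = 0.188). Herc6, the main Isg15 ligase of mouse, was at most 2.18 CPM in any of the 8 libraries and passed the test in none of the 4 comparisons, with edgeR adjusted p from 0.0669 to 0.815.

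ADP-ribosyltransferases of the Parp family and Dtx3l, the ubiquitin ligase partner of Parp9, were all 4 called higher in K36M under Repsox, against 28.8% of all tested genes. Parp14 stood at 7.89 and 10.7 CPM in WT Repsox, 2.67 and 3.95 in WT TGF-beta, 55.1 and 53.1 in K36M Repsox, and 6.8 and 10.2 in K36M TGF-beta. K36M Repsox was above the other groups, 5.84-fold over WT Repsox and 6.4-fold over K36M TGF-beta (edgeR adjusted p = 1.92e-11 and 2.11e-11). Parp12 stood at 20.4 and 21.1 CPM in WT Repsox, 10.8 and 9.26 in WT TGF-beta, 29.8 and 29 in K36M Repsox, and 13.1 and 13.7 in K36M TGF-beta. Dtx3l stood at 15.9 and 18 CPM in WT Repsox, 16.2 and 15.4 in WT TGF-beta, 30.4 and 29.8 in K36M Repsox, and 19.4 and 18 in K36M TGF-beta. Parp12 was 1.42-fold higher in K36M under Repsox and 2.08-fold lower under TGF-beta in WT (adjusted p = 0.00191 and 1.13e-06). Its genotype difference under TGF-beta, 1.35-fold, was lost without WT TGF-beta replicate 2 (adjusted p = 0.162), without K36M TGF-beta replicate 2 (0.0677) and in DESeq2 (0.0864). Dtx3l was 1.78-fold higher in K36M Repsox than in WT Repsox, and the other groups lay within 15.4 to 19.4 CPM. The exons of Dtx3l and Parp9 overlap on opposite strands, so their reads cannot be told apart without strand.

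Schlafen genes are known for roles in lymphocyte quiescence and antiviral defence. All 4 tested were called higher in K36M in both media, against 18.7% of all tested genes. Slfn4 and Slfn8 had at most 3 counts in any WT library and passed the filter on low counts only through the K36M groups. Their genotype calls are therefore not read as results. For the 4 tested, the differences between media in K36M ran from -1.29 to 0.21 on the log2 scale without passing the test (smallest edgeR adjusted p 0.059). Slfn9 stood at 7.15 and 5.82 CPM in WT Repsox, 0.517 and 0.574 in WT TGF-beta, 13.6 and 13.4 in K36M Repsox, and 10.6 and 13.5 in K36M TGF-beta. Slfn5 stood at 2.16 and 3.7 CPM in WT Repsox, 0.344 and 0 in WT TGF-beta, 7.11 and 7.8 in K36M Repsox, and 5.39 and 4.72 in K36M TGF-beta. In both genes WT TGF-beta was near 0 and the K36M libraries were above all WT libraries. K36M exceeded WT under TGF-beta by log2 4.43 ± 0.31 for Slfn9 and 4.93 ± 0.57 for Slfn5 (edgeR adjusted p = 2.01e-11 and 8.34e-08). Under TGF-beta they were 11.7-fold and 17.5-fold lower in WT (adjusted p = 3.92e-09 and 4.41e-06), and differed by -0.16 ± 0.19 and -0.56 ± 0.30 in K36M (adjusted p = 0.504 and 0.135). Slfn5 had no count in WT TGF-beta replicate 2, and without replicate 1 its log2 value was 9.08 between genotypes and -8.29 between media. An exon of Slfn5 overlaps a gene on the other strand. Slfn4 stood at 0 and 0 CPM in WT Repsox, 0 and 0 in WT TGF-beta, 2.04 and 2.41 in K36M Repsox, and 3.52 and 1.57 in K36M TGF-beta. With no count in 4 WT libraries, it was at least 20.7-fold higher in K36M under Repsox and at least 22.1-fold under TGF-beta. Slfn2 had 4 counts in WT Repsox, 17 in K36M Repsox and 2 in K36M TGF-beta, each over both libraries, and was not tested.

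The remaining members were Lgals3bp, Xaf1, Samd9l, Ifi35, Rtp4, Sp100, Ifi27l2a, Ifi44 and Epsti1. All 8 tested were called higher in K36M under Repsox, against 28.8% of all tested genes. Of these, Ifi27l2a and Sp100 passed the filter on low counts only through the K36M groups, so their genotype calls are not read as results. Lgals3bp, a secreted glycoprotein, stood at 24.5 and 22.3 CPM in WT Repsox, 4.3 and 3.52 in WT TGF-beta, 122 and 117 in K36M Repsox, and 27.3 and 30.8 in K36M TGF-beta. Its genotype ratio was 5.1-fold under Repsox and 7.45-fold under TGF-beta (edgeR adjusted p = 1.71e-14 and 8.27e-14). Xaf1, a pro-apoptotic binder of Xiap, stood at 14.5 and 14 CPM in WT Repsox, 3.44 and 5.82 in WT TGF-beta, 53.5 and 48.2 in K36M Repsox, and 11.1 and 12.8 in K36M TGF-beta. For both genes WT TGF-beta was lowest and K36M Repsox highest. Ifi35 stood at 18.5 and 13 CPM in WT Repsox, 11.8 and 8.47 in WT TGF-beta, 24.6 and 25.7 in K36M Repsox, and 11.3 and 8.39 in K36M TGF-beta. It was 1.59-fold higher in K36M under Repsox (adjusted p = 0.00248), and its fall under TGF-beta in WT (1.57-fold) was lost without WT Repsox replicate 1 (adjusted p = 0.126) or WT TGF-beta replicate 2 (0.121). An exon of Ifi35 overlaps a gene on the other strand.

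Samd9l, a growth-restraining antiviral protein, shared the unusual order of Eif2ak2. It stood at 5.53 and 5.52 CPM in WT Repsox, 8.52 and 8.4 in WT TGF-beta, 28.1 and 25.5 in K36M Repsox, and 2.74 and 5.68 in K36M TGF-beta. K36M Repsox was highest, WT TGF-beta came above WT Repsox, and 1 of the K36M TGF-beta libraries met the WT Repsox level. K36M was 4.85-fold higher than WT under Repsox and 2.04-fold lower under TGF-beta (edgeR adjusted p = 3.34e-09 and 0.000796). The second log2 value, -1.03, was -0.57 without K36M TGF-beta replicate 1 and -1.62 without replicate 2. The rise under TGF-beta in WT, log2 0.62 ± 0.23, was lost without WT Repsox replicate 1 (adjusted p = 0.0517) or either WT TGF-beta library (0.0613 and 0.0653). Ifi27l2a, a small interferon-induced membrane protein, had no count in the 4 WT libraries, and was at least 38.3-fold higher in K36M under Repsox and at least 22.1-fold under TGF-beta. Sp100, a protein of nuclear bodies, was 31.7-fold higher in K36M under Repsox and 9.25-fold under TGF-beta. Exons of Ifi27l2a overlap Ifi27l2b, and those of Sp100 a small RNA gene, on the same strand, so that reads may have been shared or lost. Ifi44 passed narrowly under Repsox (2.36-fold, adjusted p = 0.0416), and this call was lost under 11 of 14 alternatives, including the omission of any 1 of the 8 libraries (largest adjusted p 0.34). Epsti1 had 18 counts over the K36M Repsox libraries and 1 over the other 6.

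**Figure D2:**
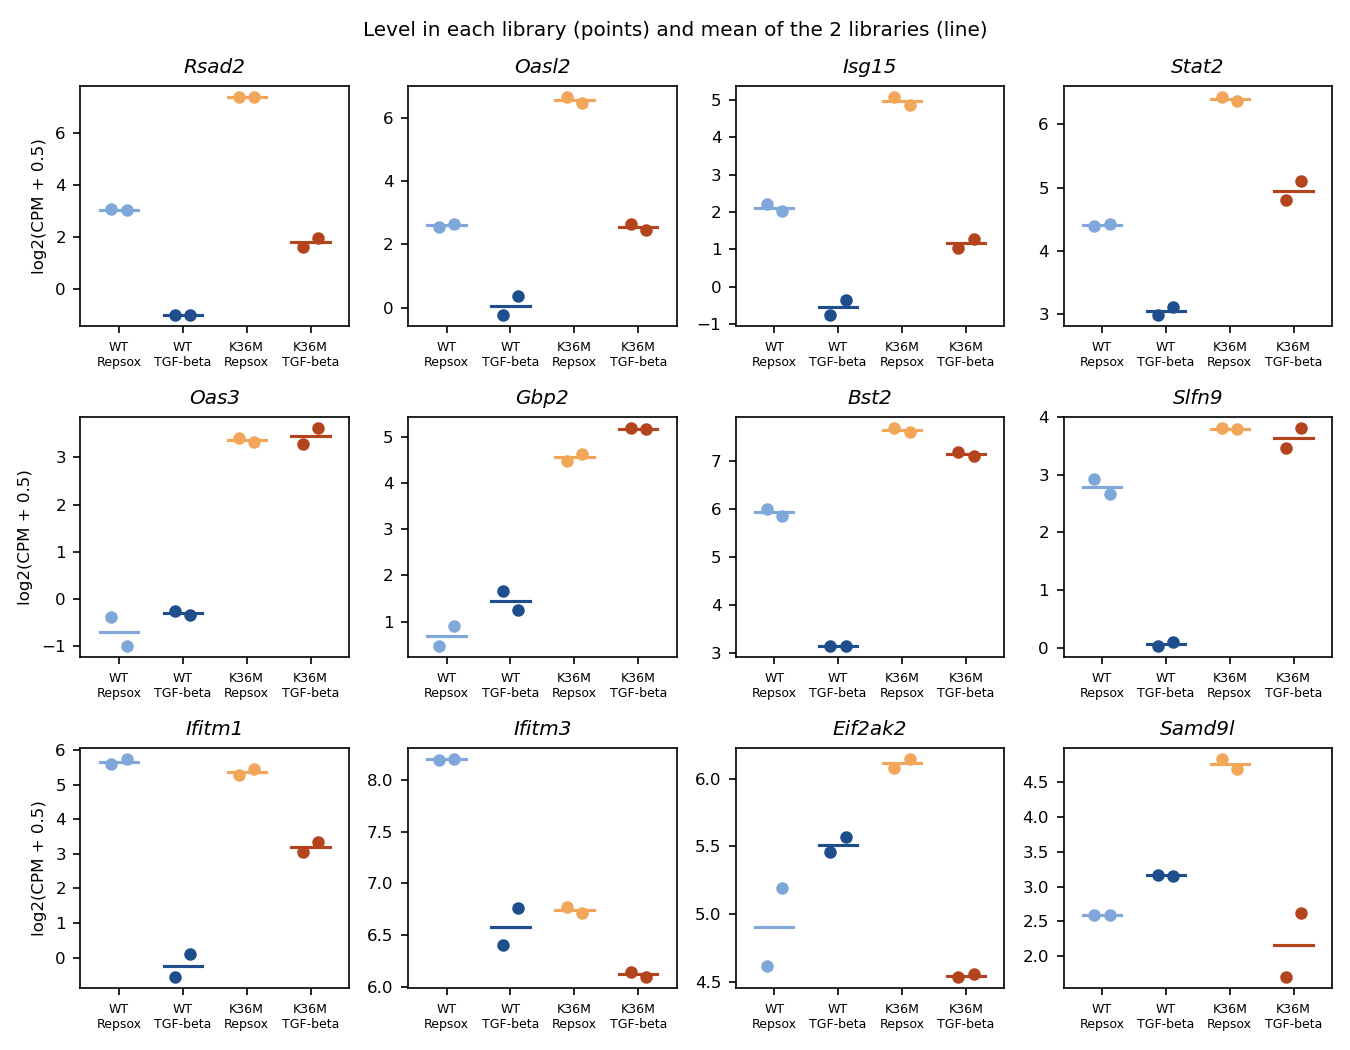
Level of 12 members in each library (points) with the group mean (line), as log2(CPM + 0.5), each panel on its own axis. The top row shows genes that are highest in K36M Repsox and lowest in WT TGF-beta, the middle row genes that stay high in K36M TGF-beta, and the bottom row genes with other orders, such as Samd9l at 2.74 and 5.68 CPM in K36M TGF-beta.

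The genotype comparisons in the 2 media compare different libraries. They come from 1 fit over all 8 libraries that shares the spread, scaling and filter, so their calls are not independent of each other. Higher in K36M in both media were 31 members, which is 75.6% of the 41 called under Repsox and 96.9% of the 32 called under TGF-beta. Of all tested genes, 18.7% were called higher in both. The 31 include Oas3, Oasl1, Slfn4, Slfn8, Sp100 and Ifi27l2a, which passed the filter on low counts only through K36M libraries. The 10 called higher under Repsox but not under TGF-beta were Dtx3l, Eif2ak2, Ifi35, Ifit1, Ifit3, Mx1, Mx2, Rtp4, Samd9l and Trim25, and Ifitm1 was called higher under TGF-beta but not under Repsox. Of those 10, Dtx3l, Eif2ak2, Ifi35, Ifit3, Samd9l and Trim25 also had a called interaction, given below, and so had Ifitm1. Setting the 2-fold rule aside, 9 of the 35 calls under TGF-beta were lost under at least 1 alternative (Cmpk2, Ifi44, Irf9, Oas1b, Oas1g, Oas2, Oasl1, Parp12 and Slfn8), against 2 of 43 under Repsox (Ifi44 and Ifitm1). With genes at 0 counts set to their bound, and Ifit3 and Mx1 left out because both groups held 3 or fewer counts, the median under TGF-beta was 2.05.

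**Figure D3:**
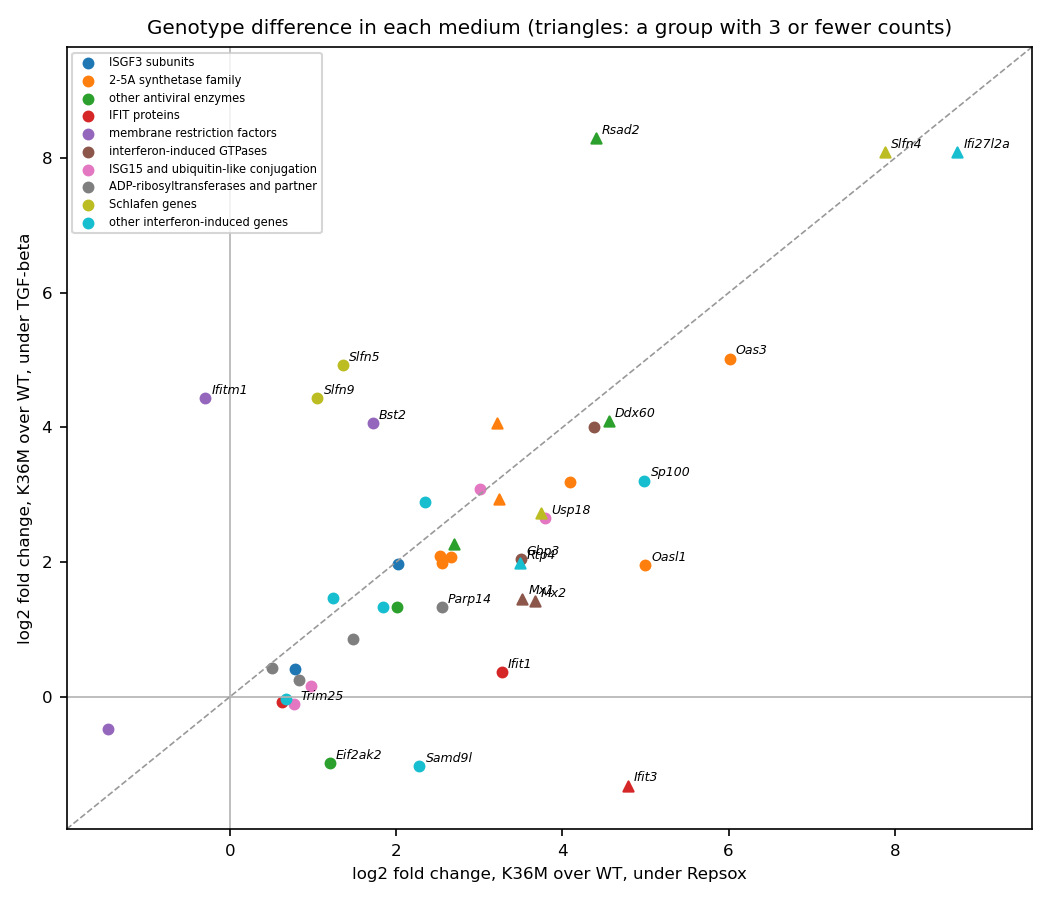
Log2 fold change of K36M over WT for the 45 tested members, under Repsox (horizontal axis) and under TGF-beta (vertical axis), coloured by role, with a dashed line of equal values. Triangles mark genes with 3 or fewer counts in a group, whose fitted values depend on the prior count. Most points lie right of and above 0, and Ifitm3 is lower in K36M on both axes (-1.47 and -0.48).

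The medium comparisons in the 2 genotypes likewise compare different libraries within that shared fit. Lower under TGF-beta in both genotypes were 26 members, which is 92.9% of the 28 called in WT and 72.2% of the 36 called in K36M; of all tested genes, 11.9% were called lower in both. Slfn5 and Slfn9 were called lower in WT but not in K36M. Called lower in K36M but not in WT were Dtx3l, Eif2ak2, Gbp3, Ifit3, Isg20, Mx1, Oas1c, Oasl1, Samd9l and Sp100, of which Eif2ak2 and Samd9l were called higher in WT. Gbp2 was called higher under TGF-beta in both genotypes.

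Whether the medium difference itself differed between genotypes was tested by the interaction, the TGF-beta over Repsox log2 ratio in K36M minus that in WT. Of the 45 members, 7 were called with a positive and 10 with a negative interaction, against 28.5% and 22.6% of all genes, with a median of -0.59 over the members and 0.093 over all genes. The positive ones, with a higher TGF-beta over Repsox ratio in K36M than in WT, were Bst2, Ifitm1, Ifitm3, Slfn9, Slfn5, Rsad2 and Lgals3bp. The smallest adjusted p belonged to Bst2 at 2.35 ± 0.14, Ifitm1 at 4.73 ± 0.36 and Slfn9 at 3.38 ± 0.40 (SE, edgeR adjusted p = 4.63e-12, 2.61e-10 and 2.62e-07). For Slfn5 the value was 3.57 ± 0.73, and 7.73 without WT TGF-beta replicate 1. The negative ones were Eif2ak2, Samd9l, Ifit3, Oasl1, Gbp3, Parp14, Trim25, Ifi35, Parp9 and Dtx3l, with the smallest adjusted p for Eif2ak2 at -2.18 ± 0.19 and Samd9l at -3.30 ± 0.32 (adjusted p = 2.24e-09 and 1.27e-08). Of the 17 interactions, to which the 2-fold rule was not applied, 9 were called under every alternative tried. The other 8 were Gbp3, Ifi35, Ifit3, Lgals3bp, Oasl1, Parp14, Parp9 and Rsad2. The fitted interaction of Rsad2, 3.90 ± 1.34, rests on a group with no count and was lost without WT TGF-beta replicate 1 (adjusted p = 0.1) or replicate 2 (0.137) and in DESeq2 (0.0602).

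**Figure D4:**
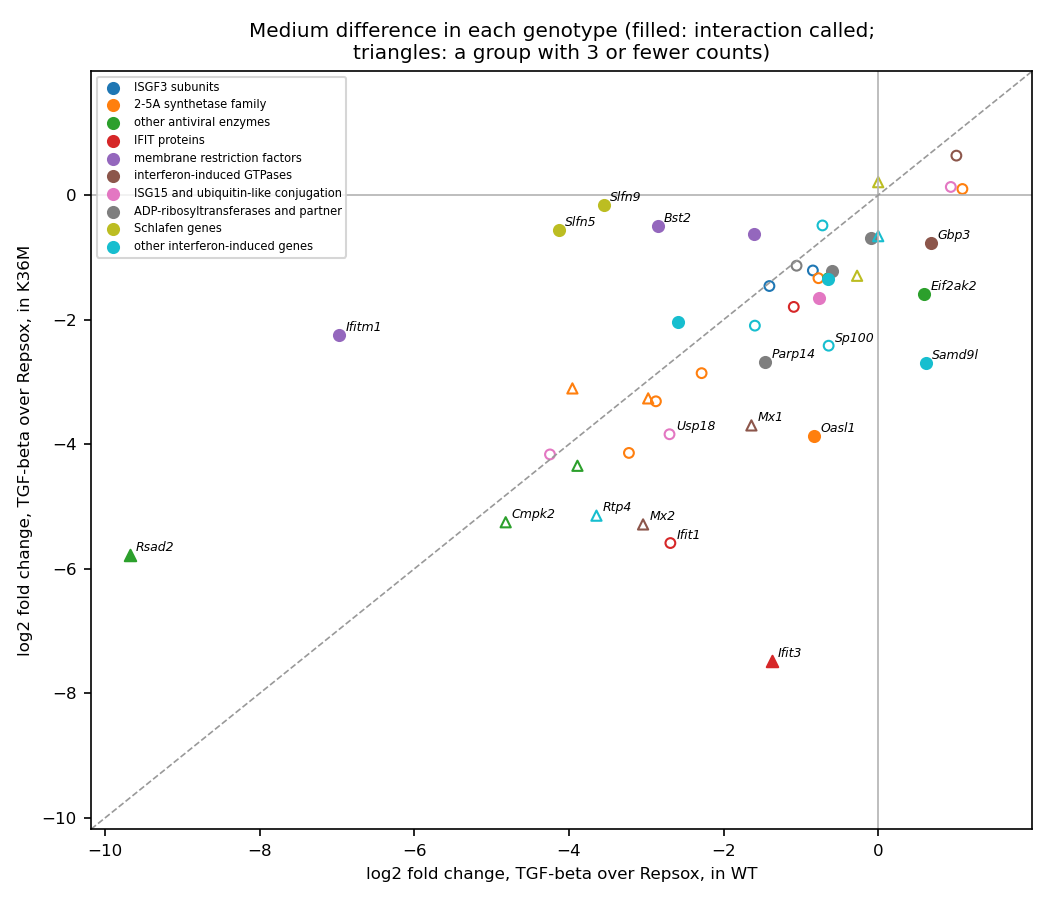
Log2 fold change of TGF-beta over Repsox for the 45 tested members, in WT (horizontal axis) and in K36M (vertical axis), coloured by role, with a dashed line of equal values. Filled symbols mark a called interaction and triangles a group with 3 or fewer counts; Ifitm1, Slfn9, Slfn5 and Bst2 lie above the line, and Eif2ak2 and Samd9l lie below it at positive values in WT.

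Genes upstream of the members in the pathway were called in both directions, and their counts are to be read against the 28.8% of all genes called higher and 26.9% called lower in K36M under Repsox, and 36.4% and 33.9% under TGF-beta. Of 21 interferon genes listed, 6 were in the table and 1, Ifnk, could be tested, and the other 15 were not analysed here. Ifnk, interferon kappa, an epithelial type I interferon, had 0 and 3 counts in WT Repsox, 0 and 0 in WT TGF-beta, 23 and 23 in K36M Repsox, and 1 and 1 in K36M TGF-beta. The K36M Repsox libraries were above the others, and over WT Repsox the ratio was 15.6 (exact interval 5.01 to 78.3, counting error only). Ifnk passed the filter on low counts only through that group, so its call is not counted as a result. All 9 receptor and kinase genes were tested: K36M was called higher for 2 and lower for 3 under Repsox, and for 2 and 6 under TGF-beta. Ifnar1, a receptor chain for type I interferon, stood at 76 and 74.9 CPM in WT Repsox, 87.5 and 88.6 in WT TGF-beta, 82.1 and 76.4 in K36M Repsox, and 57.3 and 67.5 in K36M TGF-beta. It differed by 0.07 ± 0.09 between genotypes under Repsox (adjusted p = 0.521), and was 1.41-fold lower in K36M under TGF-beta (adjusted p = 4.06e-05). Jak1 was 1.88-fold lower in K36M under TGF-beta, Ifngr2, a chain of the interferon gamma receptor, was 3.19-fold and 2.88-fold lower in K36M under Repsox and TGF-beta, and Jak2 was 1.84-fold lower under Repsox.

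Of 8 transcription factor genes, K36M was called higher for 2 and lower for 2 under Repsox, and for 4 and 2 under TGF-beta. The shares under Repsox were thus near those of all genes (28.8% and 26.9%). Under TGF-beta, 36.4% of all genes were called higher and 33.9% lower. These counts include Irf8, called higher in both media, which had 4, 0, 0 and 2 counts in the WT libraries. Irf8 passed the filter on low counts only through the K36M groups, so its calls are not read as results. Irf7, which amplifies the type I interferon response, stood at 7.35 and 6.57 CPM in WT Repsox, 1.64 and 0.574 in WT TGF-beta, 52 and 51.3 in K36M Repsox, and 3.91 and 4.54 in K36M TGF-beta. Irf7 was highest in K36M Repsox and lowest in WT TGF-beta. Its levels in K36M were 7.4-fold and 3.94-fold higher under Repsox and TGF-beta (edgeR adjusted p = 2.24e-12 and 1.2e-05). Stat3, which carries the signal of Lif and related cytokines, stood at 181 and 176 CPM in WT Repsox, 104 and 104 in WT TGF-beta, 98.8 and 104 in K36M Repsox, and 109.6 and 103 in K36M TGF-beta. WT Repsox was above the other 3 groups, which overlapped. Stat3 was 1.75-fold lower in K36M under Repsox, and its interaction was 0.85 ± 0.11 (edgeR adjusted p = 1.06e-08 and 1.43e-06). Irf3, which is activated by the sensors of nucleic acid, was 1.33-fold and 1.41-fold lower in K36M under Repsox and TGF-beta (adjusted p = 0.011 and 0.00172).

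Of 13 sensors and adaptors tested, K36M was called higher for 7 and lower for 4 under Repsox, and for 4 and 7 under TGF-beta. The 4 called lower under Repsox and the 4 called higher under TGF-beta were near the shares of all genes (26.9% and 36.4%). Ddx58, the RNA sensor RIG-I, stood at 57.5 and 63.5 CPM in WT Repsox, 22 and 17.5 in WT TGF-beta, 149.8 and 138 in K36M Repsox, and 118 and 119 in K36M TGF-beta. Ifih1, the RNA sensor MDA5, stood at 10.5 and 9.22 CPM in WT Repsox, 1.89 and 2.44 in WT TGF-beta, 38.9 and 37.6 in K36M Repsox, and 1.02 and 1.75 in K36M TGF-beta. Ddx58 kept a high level in K36M TGF-beta, whereas Ifih1 was near its lowest there. Their interactions were 1.34 ± 0.14 and -2.64 ± 0.37 (edgeR adjusted p = 5.2e-08 and 2.65e-06). Traf3, an adaptor of these sensors, was 1.7-fold and 2.39-fold lower in K36M under Repsox and TGF-beta. Of 7 negative regulators tested, 5 were called higher and 2 lower in K36M under each medium. Pias1, an inhibitor of STAT signalling, was 2.32-fold higher in K36M under Repsox, and Adar, which edits double-stranded RNA so that it escapes sensing, was 1.52-fold higher there. Socs3, a feedback inhibitor of cytokine receptors, was 2.11-fold lower in K36M under Repsox and 1.72-fold higher under TGF-beta (adjusted p = 7.98e-10 and 8e-07).

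**Figure D5:**
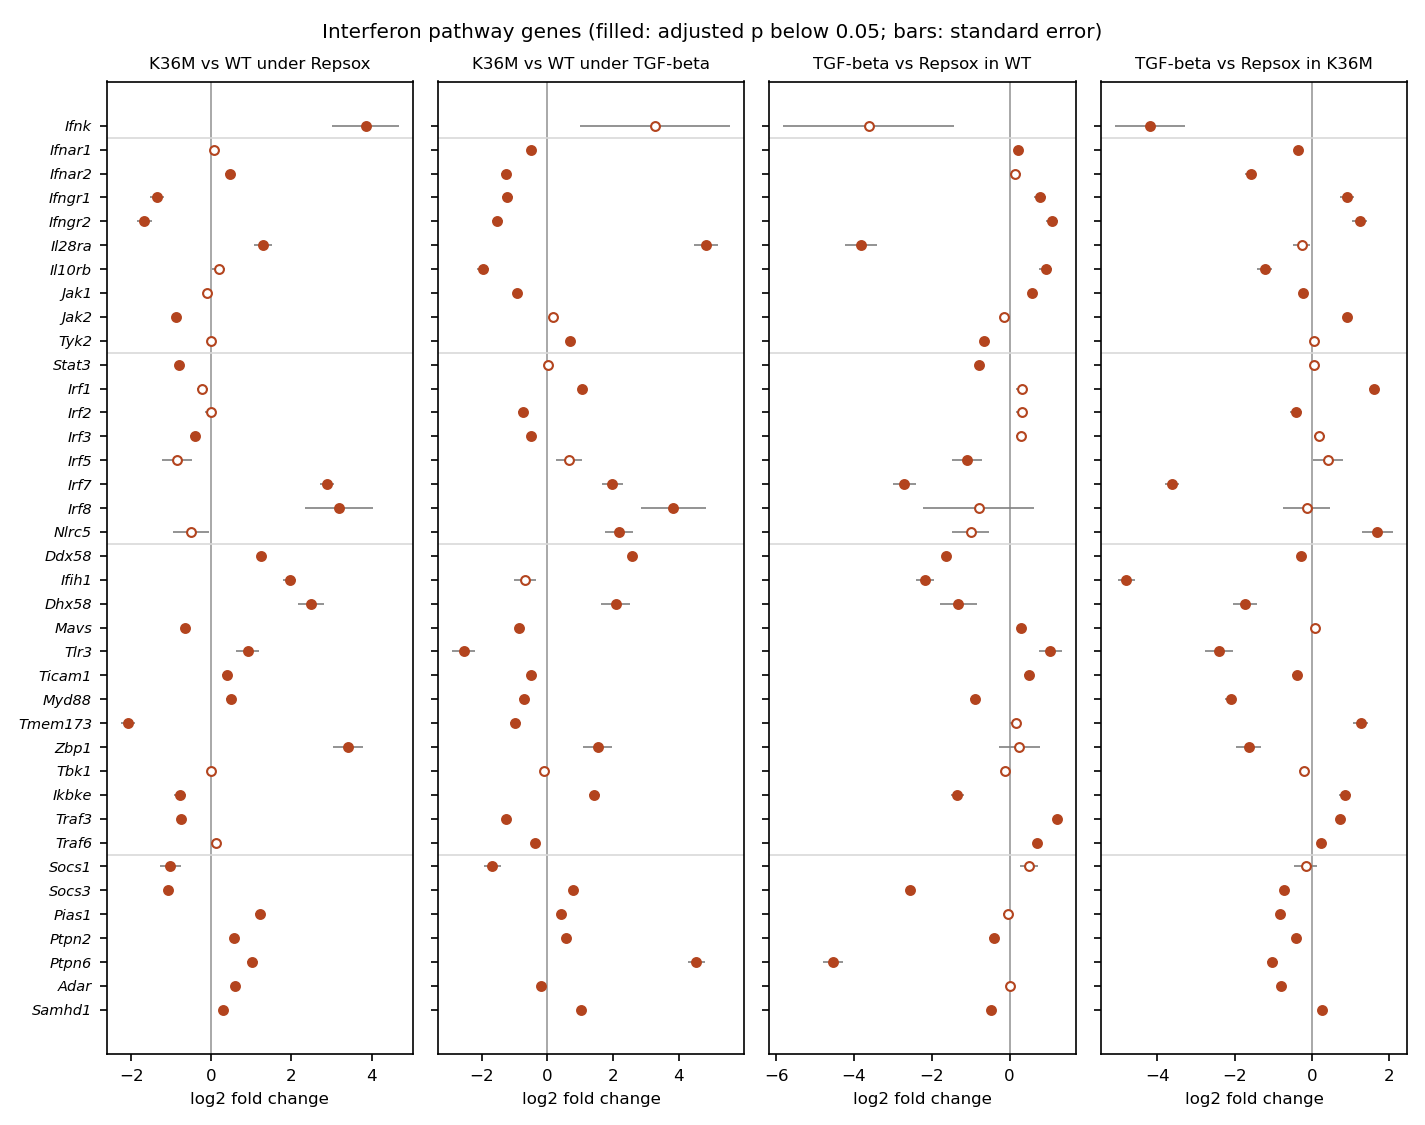
Log2 fold changes of the tested upstream pathway genes (rows, in blocks of ligands, receptors and kinases, transcription factors, sensors and adaptors, and negative regulators) in the 4 comparisons, with bars of 1 standard error. Filled points passed the test, and the Ifnk points rest on 3 or fewer counts in 3 groups; Irf7 is at 2.89, 1.98, -2.71 and -3.61 from the left panel to the right.

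Levels were compared between members per kb of exon, taking lengths from GENCODE vM1 on mm9. In WT Repsox the highest were Ifitm3 at 433.5 CPM per kb, Bst2 at 79.19 and Ifitm1 at 45.96. In K36M Repsox they were Bst2 at 260.3, Ifitm3 at 156.8 and Trim25 at 51.39, followed by Lgals3bp at 41.94, Isg15 at 41.26 and Rsad2 at 37.92. By the same measure Rsad2 stood at 1.793 in WT Repsox and 0.6915 in K36M TGF-beta, and Isg15 at 5.112 and 2.306, so their place among the members rested on the K36M Repsox group. In WT TGF-beta, Ifitm3 at 141.6 and Trim25 at 17.67 led.

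Many members lie side by side in the genome. Within 100 kb of another member were 26 of the 47, in 9 clusters on mm9. The largest held 6 synthetase genes at chr5:121180342-121357536 (Oas2, Oas3, Oas1c, Oas1b, Oas1g and Oas1a), and 4 Schlafen genes (Slfn5, Slfn9, Slfn8 and Slfn2) lay at chr11:82764851-82884180. Neighbours did not always move alike. In the synthetase cluster TGF-beta over Repsox in K36M was 0.10 ± 0.24 on the log2 scale for Oas3 (chr5:121203107-121227670, minus strand) and -2.86 ± 0.44 for Oas2 (chr5:121180342-121199862, minus strand). In the pair at chr7:148153120-148196669 the genotype difference under TGF-beta was 4.43 ± 0.33 for Ifitm1 and -0.48 ± 0.10 for Ifitm3. In the pair at chr12:27127618-27164700 Rsad2 and Cmpk2 both were highest in K36M Repsox and both fell under TGF-beta in both genotypes.

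Among the 36 tested members with a promoter in the table, 18 held the motif and 18 did not. Those with it had a median log2 fold change between genotypes of 3.22 under Repsox and 3.02 under TGF-beta, and those without it 1.54 and 1.33. Between media the medians were -2.15 with and -0.8 without the motif in WT, and -1.4 and -1.72 in K36M. The motif occurred in members with different orders of groups: Rsad2 and Isg15, which were highest in K36M Repsox, Oas3, not called between media, and Ifitm3, which was lower in K36M, held it, while Ifitm1, Samd9l, Oasl2 and Trim25 did not within these 300 bases. No test was made of this split.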

How the data were processed

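The authors deposited 1 table of raw read counts for all 8 libraries. The submitters' processing notes name the tools HTSeq 0.11.2, STAR 2.5.0 and edgeR and the build mm9 without their roles; the annotation, strand setting and any gene filter are not given in the sources used here. From these counts, edgeR 4.0.16 in R 4.3.3 kept 15789 genes (filterByExpr), scaled libraries by TMM and fitted a quasi-likelihood F test to 4 group means over all 8 libraries (residual df 4, prior df 17.5, common biological coefficient of variation 0.0702). Calls are at a Benjamini-Hochberg adjusted p below 0.05 over all tested genes. SE was obtained by dividing the log2 value by the square root of its F statistic. Groups at 0 counts were bounded by 3 counts over the group, and 1 to 3 counts give a ratio with an exact 95% interval; both cover counting error only.

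On simulated counts for K36M against WT under Repsox (15146 genes) the fit found 80 of 100 genes changed 2-fold and 97 of 100 changed 4-fold, and called 11 unchanged genes. Replicates differed by more than counting error (chi-square per df 2.7 to 9.09). Per-library values are given for Rsad2, Oas3, up to 4 members with the highest average level in each role, and those with the smallest adjusted p for the interaction or the medium comparisons; of each pathway list, the 2 genes with the highest level and the 2 with the smallest adjusted p for K36M against WT under Repsox are named. The fold changes given for other members were chosen after their values were seen. The members and all gene lists were chosen with earlier results of these data known. Some pathway genes are not reported here. Coordinates and exon lengths are from GENCODE vM1. Alternatives were DESeq2 1.42.0, RLE and upper-quartile factors, no filter on low counts, the 4 libraries of a comparison alone, the replicate number as a block, a 2-fold rule, and each library left out in turn.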

Additional observations from a re-analysis of the deposited data

Results flagged for a closer look

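For 17 members the difference between media was itself different between K36M and WT by the interaction test (edgeR adjusted p below 0.05), given here as log2 values. The 7 positive and 10 negative calls among 45 members stand against 28.5% and 22.6% of all tested genes, so interactions were no more frequent among the members than among all genes. A positive value means that TGF-beta over Repsox was higher in K36M than in WT. Ifitm1 (4.73), Rsad2 (3.9), Slfn5 (3.57), Slfn9 (3.38), Bst2 (2.35), Ifitm3 (0.99) and Lgals3bp (0.55) were positive. Ifit3 (-6.11), Samd9l (-3.3), Oasl1 (-3.04), Eif2ak2 (-2.18), Gbp3 (-1.45), Parp14 (-1.21), Trim25 (-0.89), Ifi35 (-0.7), Parp9 (-0.62) and Dtx3l (-0.59) were negative. Rsad2 in WT TGF-beta had no counts and Ifit3 had 1 count over both K36M TGF-beta libraries, so the sizes of their fitted values depend on the prior count. The calls of Gbp3, Ifi35, Ifit3, Lgals3bp, Oasl1, Parp14, Parp9 and Rsad2, 8 of the 17, were lost under at least 1 alternative. Over the alternatives the value ran from -2.10 to -0.62 for Gbp3, -4.22 to -1.94 for Oasl1 and 2.49 to 7.73 for Slfn5. Exons of Oasl1 and Slfn5 overlap a gene on the other strand. The summed levels of fibroblast, epithelial and pluripotent markers also differed between the 4 groups, and their part in these interactions was not tested.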

How the results depend on the processing

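No member's call changed direction under any alternative tried. Setting the 2-fold rule aside, the calls kept under every alternative that tested the member were 41 of 43 (K36M against WT under Repsox), 26 of 35 (under TGF-beta), 25 of 31 (media in WT), 36 of 37 (media in K36M) and 9 of 17 (interaction). Among the calls counted as kept, Ddx60 (genotypes under TGF-beta and media in WT) and Ifit1 (media in WT) were tested in only 13 of 14 alternatives. Members called lower in K36M under Repsox went from 2 to 1 in DESeq2, with RLE factors, with upper-quartile factors and with the 2-fold rule, and ran from 1 to 2 when single libraries were left out, with 1 without WT Repsox replicate 2, K36M Repsox replicate 1, K36M Repsox replicate 2 or K36M TGF-beta replicate 2; the call lost was that of Ifitm1. With the 2-fold rule, members lower in K36M under TGF-beta went from 3 to 1, members higher under TGF-beta in WT from 3 to 1, and members higher under TGF-beta in K36M from 1 to 0 (Gbp2, 1.55-fold). Those higher under TGF-beta in WT ran from 1 to 3 when single libraries were left out, with 1 without WT TGF-beta replicate 1. Where a library was left out, the lone library of that group was assumed to vary like the others. Upper-quartile factors moved the median of all genes from 0.051 to 0.174 between genotypes under TGF-beta and from 0.093 to 0.211 for the interaction. Same-numbered libraries showed no shared deviation between groups (correlations -0.023 to 0.042), which cannot show whether they were prepared together. With the replicate number as a block, K36M was called higher for 40 members and lower for 2 under Repsox, and Ifi44 was lost (edgeR adjusted p = 0.0597). Members under about 1 CPM, most in WT TGF-beta, rest on few counts, and a difference there was often not detectable at this depth.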

Other observations

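Genes related to the members by symbol but not among them were looked at after the data were seen. Several immunity-related GTPases and other family members were also higher in K36M: Igtp by log2 3.5 under Repsox and 4.77 under TGF-beta, Irgm2 by 1.71 and 3.83, Gbp7 by 2.55 and 1.76, and Parp10 by 2.51 and 1.94 (edgeR adjusted p below 0.05 for each). Slfn3 was higher by 1.86 and 4.67, and a gene named Ifi27l1, which RefSeq lists as an older symbol of Ifi27, by 2.16 and 2.75. Irgm1 and Ifi47 were called higher under TGF-beta in WT (1.61 and 2.69) and lower in K36M (-1.23 and -4.52), as Eif2ak2 and Samd9l were. Irgm1 was higher in K36M by 2.36 under Repsox and was called lower there under TGF-beta, at -0.49 (edgeR adjusted p = 0.00912), with an interaction of -2.85 (adjusted p = 7.86e-10). Ifi47 was higher by 5.94 under Repsox, differed by -1.27 under TGF-beta without passing the test (adjusted p = 0.148), and had an interaction of -7.21 (adjusted p = 6.78e-06). Ifitm2, the neighbour in symbol of Ifitm3, was lower in K36M in both media as Ifitm3 was, by -0.97 and -1.27. Parp8 (-2.99 and -3.02) and Parp3 (-1.88 and -2.50), relatives of the ADP-ribosyltransferases, were lower in K36M, and so was Ifi204 (-2.08 and -1.26).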
